A study of Mus musculus with 27 samples.

Results

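CAST/EiJ and PWK/PhJ are wild-derived inbred mouse strains that descend from different subspecies of the house mouse, castaneus and musculus, and their hepatocyte RNA was compared here. The comparison takes the 3 CAST/EiJ libraries (replicates 1, 4 and 5) and the 3 PWK/PhJ libraries (replicates 1, 2 and 3), which are 6 of the 27 libraries of the series, chosen by strain label and by no measured value. The series holds 9 inbred strains with 3 RNA libraries each, and its stated aim joins inherited differences between strains with chromatin marks, DNA methylation and RNA levels. Every mouse was female and 12 weeks old, the labelled cells were hepatocytes from liver, and the labels name no treatment and no engineered allele. The titles call the libraries biological replicates. Whether animals were pooled, the time of day and the feeding state at collection are not given in the sources used here.

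Hepatocytes make most plasma proteins, synthesise and export cholesterol and fatty acids, and carry the liver's detoxifying enzymes. Cholesterol synthesis genes are switched on together by the transcription factor SREBP-2 when sterols in the cell are low. Interferon-stimulated genes are switched on together by STAT and IRF factors and encode antiviral proteins, and many families of detoxifying enzymes and secreted proteins sit in clusters of near-identical genes that differ between mouse strains in number and sequence.

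The 6 libraries held between 17015956 counts (CAST/EiJ replicate 5) and 29268554 counts (CAST/EiJ replicate 1), so that 1 count equalled 0.0296 to 0.0516 CPM, the unit used below, which is the count scaled to 1000000 counts per library after normalization. Hepatocyte markers were present in all 6 libraries: all 10 were tested, 1 was higher in CAST/EiJ and 1 in PWK/PhJ, which is 20% called beside 34.1% of all genes, and the median log2 difference was -0.06. The counts were 2 and 3 with DESeq2 or without PWK/PhJ replicate 3, 2 and 1 without CAST/EiJ replicate 5, 0 and 1 without PWK/PhJ replicate 1 or 2, and 0 of each with the marker covariates named below. Albumin (Alb) had 90900, 88500 and 80400 CPM in CAST/EiJ replicates 1, 4 and 5, and 160000, 118000 and 114000 CPM in PWK/PhJ replicates 1, 2 and 3, with an adjusted p of 0.0513. Per-library values below keep this order of replicates.

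Markers of Kupffer cells and liver endothelial cells were present in all 6 libraries, and most were higher in PWK/PhJ. Of the 11 markers of Kupffer cells, the macrophages of the liver, 10 were higher in PWK/PhJ and 0 in CAST/EiJ, with Marco not called (2.24), beside 34.1% of all genes called and 18.2% higher in PWK/PhJ, and their summed level was 66.8, 73.6 and 60.7 CPM in CAST/EiJ against 450, 154 and 154 CPM in PWK/PhJ. The 12 liver endothelial cell markers included 11 that were higher in PWK/PhJ, with sums of 72.8, 193 and 192 CPM against 877, 265 and 311 CPM. PWK/PhJ replicate 1 was the highest library in both sums, and CAST/EiJ replicate 1 was the lowest in the endothelial sum. Without CAST/EiJ replicate 1, 6 endothelial markers were called. Without PWK/PhJ replicate 1, 4 Kupffer cell and 3 endothelial markers were called, and the median log2 differences moved from -1.94 to -1.14 and from -1.64 to -0.91. Clec4f, a Kupffer cell lectin, had 16.8, 21.7 and 19 CPM against 144, 51.5 and 51.8 CPM, and its log2 difference was -2.10 with all libraries and -1.43 without PWK/PhJ replicate 1. Cdh5, the cadherin of endothelial junctions, had 3.07, 7.22 and 7.22 CPM against 58.9, 18.1 and 20.9 CPM, and its difference moved from -2.49 to -1.75. Of 11 stellate cell markers 5 were higher in PWK/PhJ (45.5%), or 3 without PWK/PhJ replicate 1, 3 without CAST/EiJ replicate 1 and 0 with the covariates named below (6 with DESeq2 on all libraries). The stellate sums were 32.2, 77.7 and 75.7 CPM in CAST/EiJ and 197, 136 and 142 CPM in PWK/PhJ. Of the other marker lists, 3 of 10 lymphocyte, 2 of 6 neutrophil, 5 of 7 erythroid and 2 of 6 cholangiocyte markers passed the filter on low counts. The lymphocyte list had 2 and the neutrophil list 1 gene higher in PWK/PhJ (0 in each with the covariates), and no cholangiocyte marker was called. The lymphocyte count was 1 without PWK/PhJ replicate 1 or CAST/EiJ replicate 1 or 4, and the neutrophil count was 0 with DESeq2. The erythroid list had 1 call, Alas2, which was higher in CAST/EiJ (0.93) and was not called with the covariates or without CAST/EiJ replicate 4 or PWK/PhJ replicate 2 or 3. The erythroid sums were 2.19, 4.11 and 6.7 CPM against 26.2, 8.62 and 4.71 CPM, which overlap. In bulk RNA, fewer cells of a type and less RNA per cell cannot be told apart. The counts of genes below are therefore also given without PWK/PhJ replicate 1, or with the means of these 2 marker lists as covariates, where either changed them by more than 1.5 times. The part of these cells in each result was otherwise not tested.

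Of 14482 genes tested, 4941 (34.1%) were called different between the strains, which here means a Benjamini-Hochberg adjusted p under 0.05 in edgeR's quasi-likelihood test. In CAST/EiJ 2301 genes were higher (15.9% of those tested), and in PWK/PhJ 2640 were higher (18.2%). With the marker covariates 3135 genes were called, 1598 higher in CAST/EiJ and 1537 in PWK/PhJ. A difference of at least 2-fold was called for 2891 genes (20%), 1141 of them higher in CAST/EiJ and 1750 higher in PWK/PhJ, and a difference of at least 8-fold for 1000 genes, 547 and 453. The median log2 difference over all genes, CAST/EiJ minus PWK/PhJ, was -0.00, and the median absolute difference was 0.45. For 7325 genes (50.6%) the 95% confidence interval lay within 1 log2 unit of 0, so that a 2-fold difference in either direction lay outside it. Among chromosomes 1 to 19 and X the share of genes called was even, at 30.9% to 37.7%. By type, 4248 of 12820 protein-coding genes (33.1%) were called, and 396 of 647 pseudogenes (61.2%), of which 329 were higher in CAST/EiJ.

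Among the 36 pairs of strains in the same fit, this pair ranked the fifth by genes called, behind 3 pairs that include CAST/EiJ, with A/J (42.4%), C57BL/6J (38%) and WSB/EiJ (36.6%), and behind A/J with NZO/HlLtJ (36.1%). The pair with the fewest calls was A/J with C57BL/6J (7.84%). By genes that differed at least 8-fold, the pair ranked the second. These pairs share strains and are not independent. Set against the range of the other 7 strain means, only the CAST/EiJ mean lay outside for 1741 of the 4941 called genes (35.2%), only the PWK/PhJ mean for 1428 (28.9%), and both on opposite sides for 671 (13.6%). Both lay outside on the same side for 303 (6.13%) and both inside for 798 (16.2%). Over all 14482 genes the same shares were 23.7%, 18.8%, 4.91%, 12.3% and 40.3%.

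**Figure D1:**
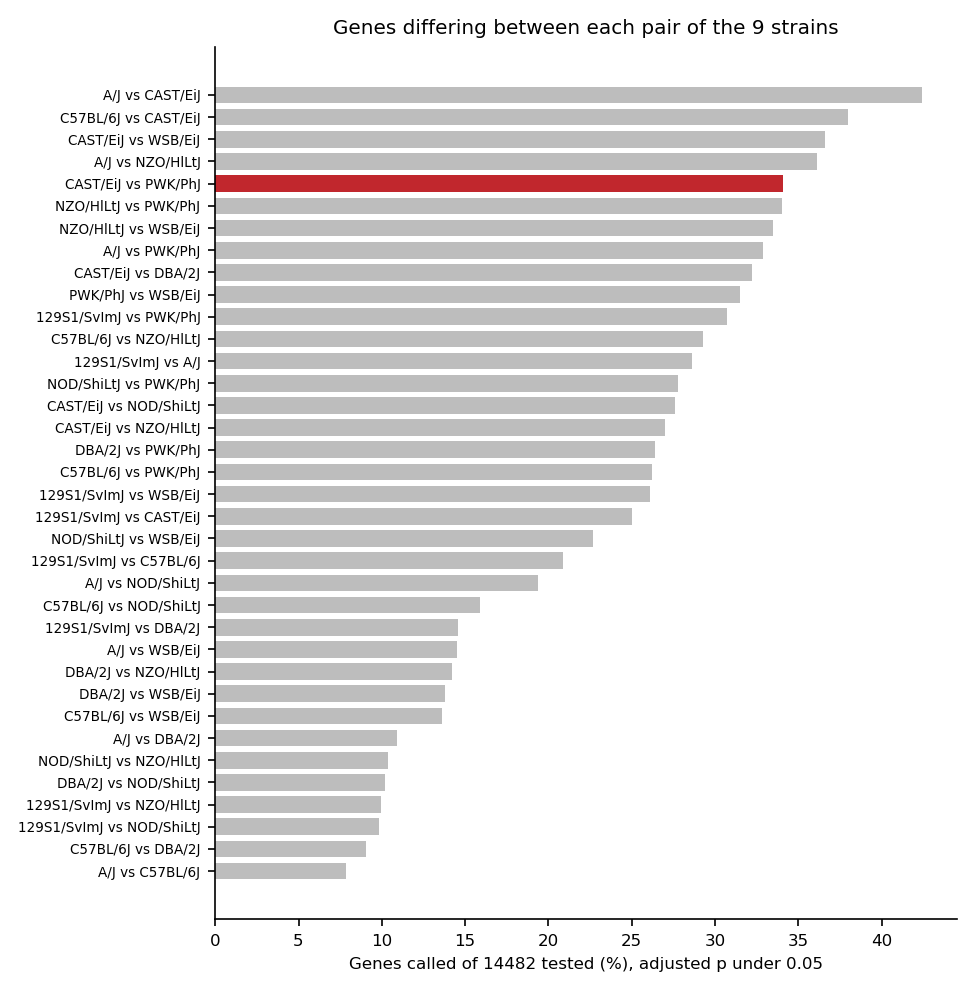
Share of the 14482 tested genes called in each of the 36 pairs of strains (horizontal axis, percent), with the pair CAST/EiJ and PWK/PhJ in red. The red bar, at 34.1%, is the fifth from the top, and the range runs from 7.84% to 42.4%.

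The 20 genes described next, 10 in each direction, had the largest differences among called protein-coding genes with at least 10 CPM in the higher strain, whole counts, and 3 libraries of one strain all above the 3 of the other. Some genes outside these limits differed by more, such as Mup19 (16.09) and Eno1b (11.13), whose counts were not whole. Gstp3, a glutathione S-transferase (chr19:4057477-4059569 on GRCm38), had 160, 165 and 136 CPM in CAST/EiJ and 0.2, 0.275 and 0.299 CPM in PWK/PhJ. Its log2 difference was 9.18 with a standard error of 0.34 (adjusted p 2.28e-16), and the other 7 strain means lay between both, at 4.98 to 13.5 CPM. Tas1r1, a subunit of the umami taste receptor, had 36.6, 64.4 and 38.9 CPM against 0.2, 0.137 and 0.0996 CPM, a log2 difference of 8.31. No other strain mean of Tas1r1 was above 0.26 CPM, so that CAST/EiJ alone carried the transcript at this level. Cyp4f14, a fatty acid hydroxylase, was low in both strains by the measure of the other 7, whose means were 408 to 729 CPM: it had 198, 202 and 190 CPM in CAST/EiJ and 7.31, 6.6 and 3.85 CPM in PWK/PhJ. Cyp4a14, a related hydroxylase, showed the same order, with 169, 387 and 311 CPM in CAST/EiJ, 18.8, 12.6 and 13.5 CPM in PWK/PhJ and 495 to 2050 CPM elsewhere. Cyp39a1, which hydroxylates an oxysterol on the way to bile acids, had 63.7, 61.3 and 89.2 CPM against 2.6, 1.86 and 2.29 CPM, both within the range of the other strains (0.727 to 142 CPM). The remaining 5 of the 10 were Amn (5.98), Sdr9c7 (5.41), Defb1 (5.14), Fam129b (4.90) and Serpinb1a (4.26), by log2 difference.

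In the other direction, several transcripts were abundant in PWK/PhJ and at or near 0 in CAST/EiJ. Gsn, the actin-severing protein gelsolin (chr2:35256380-35307892), had 1710, 878 and 828 CPM in PWK/PhJ and 0.296, 1.03 and 0.464 CPM in CAST/EiJ, a log2 difference of -10.86 with a standard error of 0.51 (adjusted p 2.2e-14). The other 7 strains had 1.66 to 30.2 CPM of Gsn, so the 2 strains sat at opposite ends. Ubash3a, a regulator of T cell receptor signalling, had 0 counts in each CAST/EiJ library and 10.3, 13.8 and 6.24 CPM in PWK/PhJ, which is at least 90.9-fold higher against a floor of 3 counts per library. Dntt, the template-independent DNA polymerase of lymphocyte development, had 0.0296, 0 and 0.258 CPM against 62.5, 113 and 98.5 CPM, and no other strain mean was above 3.15 CPM. With so few CAST/EiJ counts, the Dntt difference of -10.25 moved to -12.20 without CAST/EiJ replicate 5 and to -9.57 without replicate 4, and that of Gsn to -11.60 without replicate 4. Sult5a1, a sulfotransferase, had 0.266, 0.181 and 0.0516 CPM against 116, 120 and 116 CPM, and 2.33 to 26 CPM in the other 7 strains. Col5a2, a fibrillar collagen chain, had 1, 2.3 and 2.11 CPM against 293, 246 and 184 CPM. The strain means of Col5a2 elsewhere ran from 0.415 to 552 CPM and contained both. The remaining 5 were Grm8 (-8.38), Rarres1 (-8.35), Celsr1 (-7.17), Miox (-6.87) and Tm4sf1 (-6.33). Each of the 20 genes was also called with the covariates and without PWK/PhJ replicate 1.

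**Figure D2:**
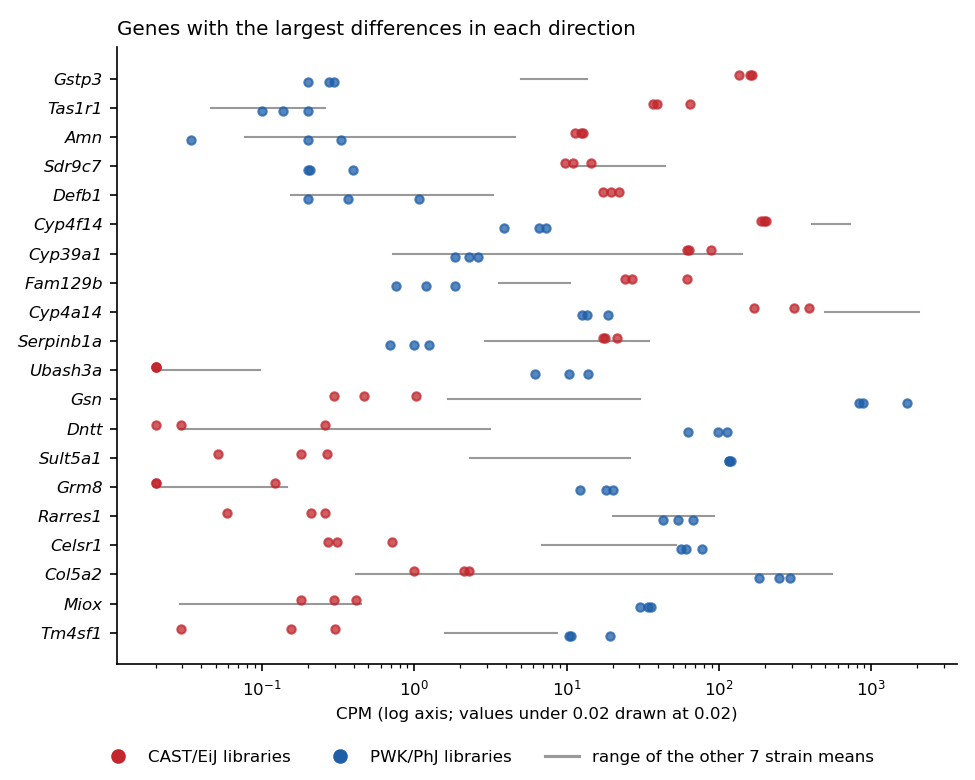
CPM on a log axis of the 20 genes with the largest differences under the limits given in the text, 10 in each direction, as a point for each of the 3 CAST/EiJ (red) and 3 PWK/PhJ (blue) libraries, with the range of the other 7 strain means as a grey line. The genes were chosen to have no overlap of red and blue points, and for Gstp3 and Gsn the grey line lies between them.

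Among abundant transcripts, haemopexin (Hpx), the plasma carrier of free haem, had 3270, 3890 and 4390 CPM in CAST/EiJ and 15100, 10100 and 8260 CPM in PWK/PhJ. The log2 difference of Hpx was -1.54 (standard error 0.26, adjusted p 4.98e-05), and it moved to -0.92 (adjusted p 0.00927) with the marker covariates. Pck1, the rate-limiting enzyme of gluconeogenesis, had 1980, 2930 and 2360 CPM in CAST/EiJ and 241, 244 and 1530 CPM in PWK/PhJ. PWK/PhJ replicate 3 lay far above the other 2 of its strain: the Pck1 log2 difference of 1.85 (adjusted p 0.0108) became 3.32 without it. Without PWK/PhJ replicate 1 or 2 the adjusted p of Pck1 was 0.0637 or 0.0562. Cyp3a25, a steroid and drug hydroxylase, had 2740, 3050 and 2830 CPM against 1350, 994 and 874 CPM (1.42), and Mug1, a murinoglobulin protease inhibitor, differed by 1.61. The other genes taken by abundance, Mup19, Mup12, Mup2 (-1.64), Serpina1d, Cyp3a41a and mt-Co1, have near-identical copies, and those families and copies are taken up below.

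Genes of cholesterol synthesis and uptake were lower in CAST/EiJ almost throughout. Of 23 genes tested, 19 were higher in PWK/PhJ and 0 in CAST/EiJ, and the median log2 difference was -1.32, beside 34.1% called and a median of -0.00 over all genes. The CAST/EiJ mean was below the other 7 strain means in 23 of 23 genes, whereas the PWK/PhJ mean lay within them in 20 and below in 3. Summed over the list, CAST/EiJ had 1930, 1780 and 1830 CPM and PWK/PhJ had 3910, 3700 and 2890 CPM, and these did not overlap. Without PWK/PhJ replicate 1, 15 genes were called, with a median of -1.45. With the Kupffer cell and endothelial means as covariates 7 were called, with a median of -1.39.

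Along the pathway, Hmgcs1, which makes HMG-CoA, had 84.1, 47.3 and 45.6 CPM in CAST/EiJ against 88.8, 165 and 119 CPM in PWK/PhJ (-1.07, adjusted p 0.0445). The lowest PWK/PhJ value of Hmgcs1 lay just above the highest CAST/EiJ value. Pmvk, the kinase of mevalonate phosphate, had 4.08, 4.17 and 3.56 CPM against 20, 33.6 and 29.7 CPM, a log2 difference of -2.81 (standard error 0.28, adjusted p 2.99e-08). Msmo1, a late sterol oxidase, had 12.8, 11.3 and 11.2 CPM against 72.6, 98.1 and 61.8 CPM (-2.72). Among regulators, Insig1, which holds SREBP factors in the endoplasmic reticulum, had 126, 66 and 78.8 CPM against 584, 517 and 416 CPM (-2.49). No CAST/EiJ library reached the lowest PWK/PhJ library for Insig1. Srebf2, which encodes SREBP-2, was lower in CAST/EiJ by less (-0.73). Hmgcs1 and Srebf2 were picked for their roles after their values were seen.

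The sterol response element bound by SREBP factors was searched for as TCACNCCAC, N being any base, on both strands of the 300 bases from 250 before to 50 after each gene start in RefSeq (GRCm38.p6). It was found in 408 of 32851 such windows (1.24%), in 152 of 10486 tested genes with a window (1.45%), and in 1 of the 16 cholesterol genes with a window, Hmgcs1. Its upstream 250 bases (chr13:119690101-119690350, plus strand) are shown because it is the single match, with the element in capitals. The start of the match lies 137 bases before the gene start. This is the C57BL/6J reference, not the sequence of either strain, and a match of letters is a description only.
Hmgcs1: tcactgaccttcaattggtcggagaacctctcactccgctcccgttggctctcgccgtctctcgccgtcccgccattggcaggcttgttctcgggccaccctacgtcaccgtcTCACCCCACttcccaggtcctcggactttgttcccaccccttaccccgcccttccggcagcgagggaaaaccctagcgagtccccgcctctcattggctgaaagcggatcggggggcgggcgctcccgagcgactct

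Lipogenic genes followed the same direction. Of 19 fatty acid and triglyceride synthesis genes, 11 were higher in PWK/PhJ and 0 in CAST/EiJ (median -0.94), which is 57.9% called beside 34.1% of all genes, and the marker covariates left 4 higher in PWK/PhJ and 1 in CAST/EiJ. Pnpla3, a lipid droplet lipase and acyltransferase, had 2.33, 1.78 and 2.06 CPM against 26.6, 30.7 and 40.7 CPM (-3.98, standard error 0.66, adjusted p 5.08e-05), and the PWK/PhJ mean was above the other 7 strains (0.952 to 7.12 CPM). Scd1, the desaturase that makes oleate, had 1520, 386 and 634 CPM against 5630, 4200 and 3020 CPM. CAST/EiJ replicate 1 was the nearest to PWK/PhJ, and the Scd1 difference of -2.34 became -3.07 without it. Gpam, the first acyltransferase of glycerolipid synthesis (-1.82), and Me1, the NADPH-making malic enzyme (-1.59), were also lower in CAST/EiJ. Elovl5, the most abundant member not called, had a difference of -0.41.

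Of 20 genes of fatty acid oxidation and ketone production, 6 were higher in CAST/EiJ and 2 in PWK/PhJ (median 0.29), and the share called, 40%, was near the 34.1% of all genes. With the covariates the counts were 2 and 2, and without CAST/EiJ replicate 1 or PWK/PhJ replicate 1 they were 4 and 1. Bdh1, which interconverts the ketone bodies, had 229, 293 and 178 CPM against 85.9, 114 and 142 CPM (1.04), and Cpt2, which unloads acyl groups inside mitochondria, had 143, 156 and 120 CPM against 59.7, 97.3 and 77.2 CPM (0.84). Neither passed the threshold with the covariates. Fgf21, the fasting hormone of the liver, was lower in CAST/EiJ, with 0.207, 0.181 and 0.0516 CPM against 1.48, 1.65 and 0.597 CPM (-2.94). Of 21 urea cycle and amino acid breakdown genes, 5 were higher in CAST/EiJ and 2 in PWK/PhJ, or 3 and 2 with the covariates and 4 and 0 without CAST/EiJ replicate 1, and the share called, 33.3%, was near the 34.1% of all genes. Oat, ornithine aminotransferase, had 1200, 1180 and 1180 CPM against 92.1, 323 and 399 CPM (2.13, standard error 0.35, adjusted p 3.94e-05), above the other 7 strain means of 150 to 599 CPM. The first enzyme of the urea cycle, Cps1, was not called (0.13). Among 13 glucose genes, Gys2, liver glycogen synthase, was higher in CAST/EiJ (1.08) and Pygl, liver glycogen phosphorylase, higher in PWK/PhJ (-0.50), beside Pck1. Gys2 and Pck1 were not called with the covariates.

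**Figure D3:**
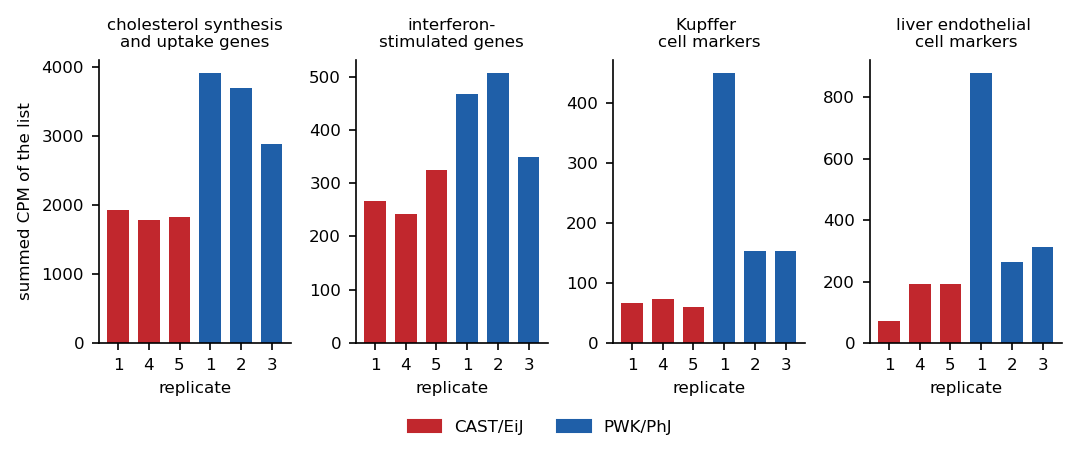
Summed CPM of 4 gene lists in each library, CAST/EiJ replicates 1, 4 and 5 in red and PWK/PhJ replicates 1, 2 and 3 in blue, with all vertical axes starting at 0. The cholesterol sums run from 1780 to 1930 CPM in CAST/EiJ and from 2890 to 3910 CPM in PWK/PhJ, while the Kupffer cell and endothelial sums are highest in PWK/PhJ replicate 1, at 450 and 877 CPM.

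Interferon-stimulated genes were also lower in CAST/EiJ. Of 32 tested, 23 were higher in PWK/PhJ and 1 in CAST/EiJ, which is 75% called beside 34.1% of all genes. The median log2 difference was -1.74, which is the same when genes near 0 counts are set at their bounds. The counts were 22 and 0 without PWK/PhJ replicate 1 and 21 and 1 with the marker covariates. The CAST/EiJ mean was below the other 7 strains for 21 of the 32 and the PWK/PhJ mean within them for 25. Most of these genes had low levels, and their sums were 267, 243 and 324 CPM in CAST/EiJ and 468, 506 and 349 CPM in PWK/PhJ. The exception, Ifi27l2a, had at most 0.121 CPM in any of the 6 libraries, at the level of 3 counts, and is given no fold.

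Irf7, the factor that amplifies the interferon response, had 1.68, 1.39 and 1.29 CPM in CAST/EiJ and 19.2, 18.6 and 11.5 CPM in PWK/PhJ (-3.48, adjusted p 9.57e-08). The groups lay far apart, with PWK/PhJ inside the range of the other 7 strains (5.35 to 32.3 CPM). Ifi44, an interferon-induced cytoplasmic protein, had 0, 0.0302 and 0 CPM against 2.36, 2.2 and 2.16 CPM, at least 20.1-fold higher in PWK/PhJ, and Oasl2, a member of the oligoadenylate synthetase family, was at least 40.1-fold higher. Rsad2, the antiviral protein viperin, had 0.887, 0.906 and 1.24 CPM against 7.07, 6.8 and 3.75 CPM (-2.56, adjusted p 2.61e-05). Isg15, a ubiquitin-like modifier, had 0.443, 0.332 and 0.361 CPM against 1.08, 2.61 and 0.796 CPM (-1.96, adjusted p 0.0029). No CAST/EiJ library reached the lowest PWK/PhJ library for either gene. Bst2, the most abundant member not called, which tethers budding virus, had 72.9, 73 and 77.9 CPM against 135, 114 and 79.8 CPM. The transducer Stat2 (0.34) was not called. Irf7, Rsad2, Isg15 and Stat2 were picked after their values were seen.

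The interferon-stimulated response element was searched for in the same RefSeq windows as GAAA followed after any 2 bases by another GAAA, on both strands. It was found in 1131 of 32851 windows (3.44%), in 412 of 10486 tested genes with a window (3.93%), and in 14 of the 22 interferon-stimulated genes with a window. Of these 14 genes 10 were called, and of the 8 without a match 8 were called. The upstream 250 bases of Rsad2 (chr12:26456453-26456702, minus strand) and Isg15 (chr4:156200819-156201068, minus strand) are shown to set a single match beside 3 overlapping ones, in capitals, in genes that were both lower in CAST/EiJ. The first match begins 120 bases before the start of Rsad2, on the opposite strand to the gene, and 78 bases before that of Isg15.
Rsad2: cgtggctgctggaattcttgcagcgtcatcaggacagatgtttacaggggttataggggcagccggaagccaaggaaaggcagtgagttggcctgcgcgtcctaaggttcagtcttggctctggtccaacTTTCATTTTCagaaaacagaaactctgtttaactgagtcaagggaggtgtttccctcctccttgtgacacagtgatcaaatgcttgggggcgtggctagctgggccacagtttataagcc
Isg15: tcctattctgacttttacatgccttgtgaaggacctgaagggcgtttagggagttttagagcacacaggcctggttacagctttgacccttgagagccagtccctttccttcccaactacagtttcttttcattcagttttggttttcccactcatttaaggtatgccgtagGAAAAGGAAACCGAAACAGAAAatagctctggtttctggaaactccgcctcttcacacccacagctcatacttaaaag

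Of 12 genes for interferon receptors, signalling and nucleic acid sensing, 4 were higher in PWK/PhJ and 1 in CAST/EiJ, 41.7% called beside 34.1% of all genes, and 11 of the 12 log2 differences were negative. Those higher in PWK/PhJ included the receptor chains Ifngr1 (-0.85), Ifngr2 (-0.69) and Ifnar1 (-0.60), and none of these 3 passed the threshold with the covariates, which left 1 gene higher in PWK/PhJ, or 2 without PWK/PhJ replicate 1. Mavs, the mitochondrial adaptor of RNA sensing, was the 1 gene higher in CAST/EiJ: it had 81.6, 78.3 and 78.2 CPM against 41.8, 44.4 and 43.8 CPM (0.87, standard error 0.12, adjusted p 4.07e-06). The strain means of Mavs lay on opposite sides of the other 7 (56.6 to 75.6 CPM). Of 14 immunity-related GTPases and guanylate-binding proteins, which attack the vacuoles of intracellular pathogens, 8 were higher in PWK/PhJ and 0 in CAST/EiJ (median -2.26, 57.1% called). Iigp1 had 0.562, 0.393 and 0.567 CPM against 148, 248 and 186 CPM (-8.58, adjusted p 1.76e-14), and the other 7 strains had 139 to 288 CPM, so CAST/EiJ alone lacked it at this level. Tgtp2 had 0 CPM in each CAST/EiJ library and was at least 66.6-fold higher in PWK/PhJ, whereas its copy Tgtp1 was not called (1.41), and 11 of the 14 genes had counts that were not whole. Gbp7 (-4.62) and Gbp3 (-3.51) were lower in CAST/EiJ, and Irgm1 did not pass the threshold (-0.14). With the covariates 5 of the 14 were higher in PWK/PhJ, and the median was -0.79. Of 14 MHC class I genes, which present peptides, 5 were higher in PWK/PhJ and 1 in CAST/EiJ (42.9% called, and 12 of the 14 without whole counts), or 3 and 3 with the covariates. H2-Q1 had 8.45, 9.42 and 8.2 CPM against 0.0399, 0 and 0.0664 CPM, at least 80.9-fold higher in CAST/EiJ, and H2-Q2 had 0.532, 0.393 and 0.412 CPM against 42, 31.2 and 23.6 CPM. Of 10 antigen processing genes 4 were called, 40% beside 34.1% of all genes, and these were higher in PWK/PhJ: Psmb8 (-1.38), Tap2 (-1.15), Tapbp (-0.88) and Psme2 (-0.48). With the covariates 2 were called, and Tap2 and Tapbp were not.

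**Figure D4:**
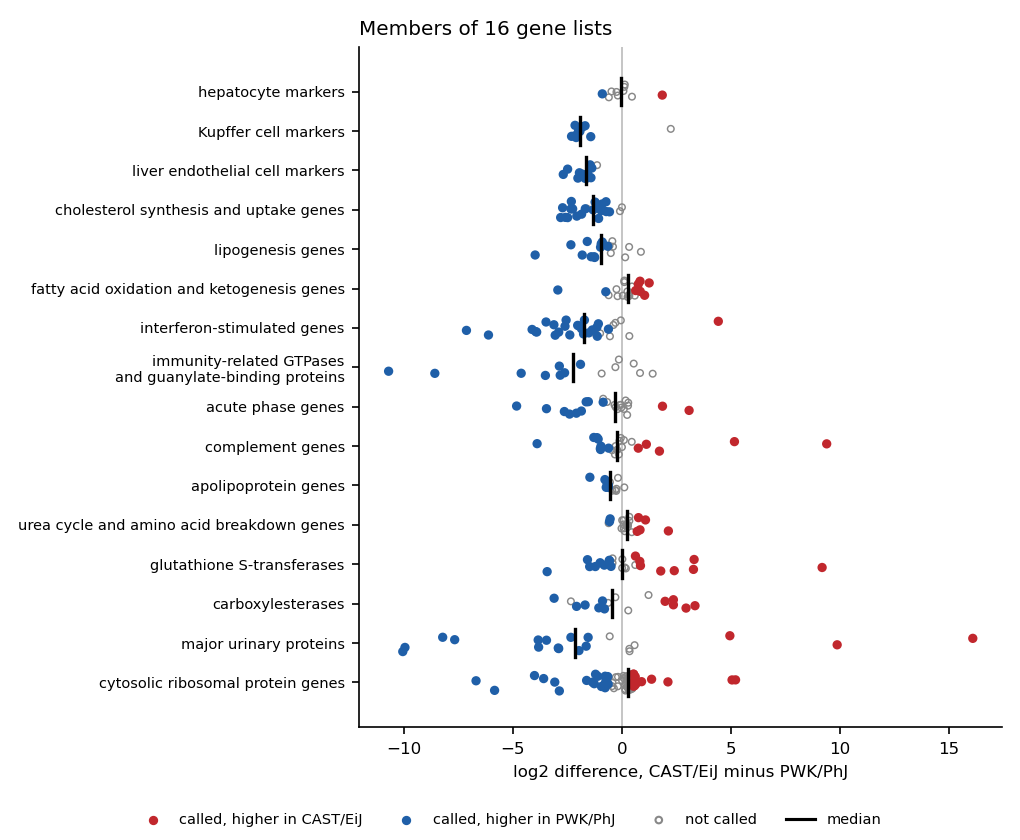
Log2 difference, CAST/EiJ minus PWK/PhJ (horizontal axis), of every tested member of 16 gene lists, with called members filled red (higher in CAST/EiJ) or blue (higher in PWK/PhJ), members not called open, and the list median as a black bar. The cholesterol members lie at or left of 0, from -2.81 to -0.00, while the glutathione S-transferases spread from -3.43 to 9.18 around a median of 0.01.

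Secreted plasma proteins differed gene by gene. Of 24 acute phase genes, which respond to inflammation, 9 were higher in PWK/PhJ and 2 in CAST/EiJ (median -0.32), 45.8% called beside 34.1% of all genes. With the covariates 7 were higher in PWK/PhJ and 4 in CAST/EiJ, and the median turned to 0.27. The iron hormone hepcidin, Hamp, had 116, 72.2 and 303 CPM in CAST/EiJ and 1040, 768 and 783 CPM in PWK/PhJ (-2.40), and its copy Hamp2 had 110, 68.9 and 266 CPM against 5300, 3710 and 3620 CPM (-4.83), both with counts that were not whole. CAST/EiJ replicate 5 was the highest of its strain for both, and without it the differences were -3.19 and -5.55. The alpha-1-acid glycoproteins were split: Orm1 had 273, 262 and 494 CPM against 66.8, 35.9 and 18.6 CPM (3.08), and Orm3 was higher in PWK/PhJ (-3.46). Of 23 complement genes (56.5% called) 5 were higher in CAST/EiJ and 8 in PWK/PhJ, or 6 and 5 without PWK/PhJ replicate 1 and 8 and 2 with the covariates. C6, a component of the membrane attack complex, had 9.58, 4.59 and 2.53 CPM against 120, 55.5 and 76 CPM (-3.89), and without CAST/EiJ replicate 1 it differed by -4.52. C8b, a subunit of the same complex, was higher in CAST/EiJ, with 317, 360 and 282 CPM against 144, 73.2 and 73.4 CPM (1.72). C1rb, a copy of the C1r protease gene, was at least 176-fold higher in CAST/EiJ, and C4a differed by 5.16, both with counts that were not whole. Complement C3 was not called (-0.29). Among 21 coagulation genes 2 were higher in CAST/EiJ and 3 in PWK/PhJ (23.8% called), or 2 and 1 without PWK/PhJ replicate 1 and with the covariates, and 2 and 5 without PWK/PhJ replicate 3 and with DESeq2. Cpb2, the inhibitor of clot lysis, had 363, 316 and 406 CPM against 79.3, 61.6 and 50.9 CPM (2.50, adjusted p 6.65e-10).

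Of 13 apolipoprotein genes, which build lipoprotein particles, 6 were higher in PWK/PhJ and 0 in CAST/EiJ (46.2% called, beside 34.1% of all genes), but 1 without PWK/PhJ replicate 1 and 1 with the marker covariates, 2 without CAST/EiJ replicate 1 and 3 without CAST/EiJ replicate 5. Under the first pair of settings the 1 gene was Apom, which had 140, 169 and 202 CPM against 579, 452 and 386 CPM (-1.47, and -1.30 or -0.89 under these settings). Apoa2 (-0.78), Apoe (-0.72) and Apoa5 (-0.68) were not called under either, and Apob was not called with all libraries (0.11). Of 13 iron and haem genes, 6 were higher in PWK/PhJ (also 46.2%), or 3 with the covariates, among them Hmox1, which degrades haem (-1.22, not called with the covariates), and Ftl1, which is taken up with its copies below. Of 12 growth hormone and IGF axis genes, edgeR called 0 and DESeq2 called 2, and 3 had an unadjusted p under 0.05. Leaving out CAST/EiJ replicate 1 or PWK/PhJ replicate 2 gave 1 call, and leaving out PWK/PhJ replicate 3 gave 2. Igfbp4, their most abundant member, differed by 0.06 with a 95% interval of -0.33 to 0.46.

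Clusters of near-identical genes held large differences in both directions. All 20 tested major urinary protein (Mup) genes, which encode pheromone carriers, had estimated counts that were not whole in at least 1 library, and 13 were higher in PWK/PhJ and 3 in CAST/EiJ (80% called, beside 34.1% of all genes). Mup19 had 6290, 4520 and 5130 CPM against 0.16, 0 and 0.0664 CPM, Mup12 had 3530, 3020 and 2240 CPM against 4.51, 3.4 and 1.53 CPM, and Mup20 had 0.118, 0.181 and 0 CPM against 220, 48.2 and 84.5 CPM. Summed over the family the libraries overlapped, at 23200, 18700 and 18300 CPM in CAST/EiJ and 34000, 22800 and 21800 CPM in PWK/PhJ. The Serpina1 genes, which encode alpha-1-antitrypsin, split in the same way: Serpina1e (5.02) and Serpina1c (4.19) were higher in CAST/EiJ, Serpina1a (-4.22) and Serpina1d (-1.15) were higher in PWK/PhJ, and Serpina1b was not called (0.04). Their sum was 17600, 14000 and 12300 CPM against 23900, 20100 and 18000 CPM. The sums did not overlap and lay closer together than the values of any of the 4 called members. Of 9 Serpina3 genes, 33.3% were called, and these 3 were higher in CAST/EiJ: Serpina3g (2.30), Serpina3m (2.18) and Serpina3c (0.95). How the authors' counting split reads between copies was not tested.

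Detoxifying enzymes held differences in both directions. Of 24 glutathione S-transferases, 8 were higher in CAST/EiJ and 9 in PWK/PhJ, 70.8% beside 34.1% of all genes, or 5 and 8 with the covariates and 5 and 7 without PWK/PhJ replicate 1. Gstt1 had 11.8, 11.6 and 15.9 CPM against 138, 137 and 148 CPM (-3.43, standard error 0.16, adjusted p 2.28e-14), with PWK/PhJ inside and CAST/EiJ below the other 7 strains (84.6 to 233 CPM). Gsta1 (3.31) and Gstm2 (3.28) were higher in CAST/EiJ and the abundant Gstm1 was not called (0.13). Of 16 sulfotransferases (68.8% called) 7 were higher in CAST/EiJ and 4 in PWK/PhJ, or 7 and 2 without CAST/EiJ replicate 1 or PWK/PhJ replicate 2. Sult2a6 and Sult2a4 were at least 33.8-fold and at least 87.3-fold higher in CAST/EiJ, against Sult5a1 in the other direction. Of 17 UDP-glucuronosyltransferases 7 were higher in CAST/EiJ and 5 in PWK/PhJ (3 with the covariates or without PWK/PhJ replicate 1), 70.6% called. They ran from Ugt1a10 at 4.60 to Ugt1a5 at -2.86. Of 16 carboxylesterases 5 were higher in CAST/EiJ and 6 in PWK/PhJ (3 with the covariates), 68.8% called. Ces2b had 124, 107 and 86 CPM against 14.1, 10.3 and 6.8 CPM (3.35), both above the other 7 strains, where no mean exceeded 0.441 CPM, and Ces2c was higher in PWK/PhJ (-3.11).

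Among cytochrome P450 families, 7 of 12 Cyp2a and Cyp2d genes were called (58.3%, beside 34.1% of all genes), and these were higher in CAST/EiJ. In the Cyp3a family 9 genes were tested: 3 were higher in CAST/EiJ, and Cyp3a41a and Cyp3a41b, which are not among the 7 on the Cyp3a list, were higher in PWK/PhJ. Counts were not whole for 12 of the 12 Cyp2a and Cyp2d genes and 6 of the 7 on the Cyp3a list. The Cyp2a and Cyp2d sums overlapped, at 6610, 7700 and 7840 CPM in CAST/EiJ against 8820, 6990 and 6130 CPM in PWK/PhJ, and the Cyp3a sums did not. Over the list of 7 they were 5240, 6010 and 5910 CPM against 3930, 2920 and 2540 CPM, and over all 9 genes, a sum added after the values were seen, they were 7410, 7740 and 8200 CPM against 11800, 11600 and 9670 CPM, so that the direction turned with the 2 genes. Cyp2d9, a steroid hydroxylase, had 375, 248 and 128 CPM against 31.8, 7.28 and 19.4 CPM (3.69), and Cyp3a59 had 76.2, 106 and 90.1 CPM against 3.03, 2.2 and 1.1 CPM (5.44). Cyp3a41a, named for its abundance, had 2150, 1720 and 2260 CPM against 7110, 7960 and 6590 CPM (-1.82), and was not called with the covariates. Cyp3a41b, chosen after its values were seen, had 14.1, 11.2 and 24.9 CPM against 712, 699 and 542 CPM (-5.29). Of 12 Cyp4a and Cyp4f genes 3 were higher in CAST/EiJ and 5 in PWK/PhJ (5 and 3 with the covariates), 66.7% called. They ran from Cyp4f14 at 5.06 to Cyp4f39 at -3.61. Of 5 Cyp2b genes 2 were called (40%), and these were higher in CAST/EiJ, Cyp2b13 (1.71) and Cyp2b9 (0.94). The count was 1 without CAST/EiJ replicate 4 or PWK/PhJ replicate 2. Of 13 Cyp2c genes 4 were higher in CAST/EiJ and 2 in PWK/PhJ (46.2% called), from Cyp2c38 at 4.70 to Cyp2c68 at -2.06. With the covariates or without CAST/EiJ replicate 4 the counts were 4 and 1. All 3 Cyp2j genes tested were called, 1 of them with the covariates, and both strains lay below the other 7 for each: Cyp2j5, which oxidises arachidonic acid, had 253, 278 and 257 CPM against 585, 477 and 381 CPM, where no other strain mean was under 643 CPM. In bile acid synthesis 4 of 22 genes were called, 18.2% beside 34.1% of all genes, or 9 without PWK/PhJ replicate 3. Cyp8b1, which sets the share of cholic acid, had 313, 198 and 220 CPM against 892, 602 and 429 CPM (-1.39). Cyp7b1, of the alternative pathway, had 478, 327 and 315 CPM against 955, 821 and 816 CPM (-1.21), and both strains exceeded the other 7, which had 38.3 to 97.4 CPM. Neither Cyp8b1 nor Cyp7b1 passed the threshold with the covariates.

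Of 20 liver transcription factors 6 were higher in CAST/EiJ and 1 in PWK/PhJ (3 and 2 with the covariates), and the share called, 35%, was near that of all genes, 34.1%. Nr1h3, the oxysterol receptor LXR alpha, had 126, 105 and 109 CPM against 57.7, 67.4 and 72 CPM (0.79, standard error 0.16, adjusted p 0.000419), and Prox1 (0.91, not called with the covariates) and Onecut2 (0.85) were also higher in CAST/EiJ. Hnf4a, the central hepatocyte factor, was not called (0.46). Of 32 enzymes that write or erase histone and DNA marks, the subject of the wider series, 2 were higher in CAST/EiJ and 4 in PWK/PhJ, 18.8% beside 34.1%, and the median was -0.01. Without CAST/EiJ replicate 4 or PWK/PhJ replicate 2 the counts were 1 and 2. The DNA methyltransferase Dnmt3b had 3.4, 2.45 and 3.92 CPM against 5.67, 8.69 and 5.64 CPM (-1.04), and the histone methyltransferase Setdb1 had 18.5, 15.4 and 15.1 CPM against 28.5, 28 and 22.5 CPM (-0.69). Of 50 zinc finger genes named Zfp900 to Zfp999, 8 were higher in CAST/EiJ and 9 in PWK/PhJ, 34% beside 34.1%. Of these 17, 16 differed at least 2-fold, beside 2891 of all 4941 called genes. Zfp970 had 89.7, 154 and 104 CPM against 13.4, 17.7 and 22 CPM (2.71), and Zfp979, at 0.0296, 0 and 0 CPM against 0.719, 0.825 and 0.398 CPM, was near the level of a few counts. Of the 50 genes 33 had counts that were not whole. Of 17 clock genes 2 were called (11.8%, beside 34.1% of all genes), or 5 without PWK/PhJ replicate 3. Per2, a repressor of the clock, had 18.2, 14.6 and 6.91 CPM against 0.878, 0.756 and 1.06 CPM (3.88, standard error 0.51, adjusted p 1.9e-06), and Dbp, a clock output factor, had 16, 35.9 and 10.3 CPM against 2.84, 0.515 and 4.98 CPM (2.90). Dbp lost its call without any 1 of CAST/EiJ replicates 1 and 4 or PWK/PhJ replicates 1 and 2. Of 9 immediate early genes 1 was called (11.1%, also beside 34.1%). This was Egr1, whose libraries overlapped, at 12.4, 4.17 and 3.04 CPM against 52.9, 119 and 4.91 CPM. The call of Egr1 was lost without any 1 of CAST/EiJ replicates 4 and 5 or PWK/PhJ replicates 1 and 2. Of 74 nuclear-encoded subunits of oxidative phosphorylation 7 were higher in CAST/EiJ and 6 in PWK/PhJ, 17.6%, or 1 and 7 with the covariates, 5 and 3 without CAST/EiJ replicate 1, 3 and 5 without CAST/EiJ replicate 4 and 2 and 4 without PWK/PhJ replicate 1.

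Processed copies of genes changed what could be said of some of the largest differences. Of 654 tested pseudogenes and annotated copies, 471 matched a protein-coding gene at 90% identity or more over at least 80% of their length, and they belonged to 337 genes. Of these copies 309 were called (65.6%, beside 34.1% of all genes), 269 of them higher in CAST/EiJ (57.1%, beside 15.9%). For 74 of the 135 genes that were called alone, a copy was called in the opposite direction. When the counts of a gene and its copies were added, an alternative chosen after the data were seen, the median absolute difference of these 74 genes went from 0.94 to 0.34, and 27 remained called, 8 of them with the sign changed. These 74 were picked for a copy that differed the other way in the same data. Adding such a copy pulls the difference toward or past 0, so the fall describes the size of the shift and tests nothing. Over the 337 genes, 135 were called alone and 104 as sums, and differences of at least 8-fold went from 27 to 12. Each copy was added to the best-matching gene annotated as protein-coding, which could itself be a copy. Rps18-ps3, for example, was added to Gm10260 (8.13 as a sum) and not to Rps18 (-1.27 alone). A sum therefore need not hold all copies of a gene, and differences that remain can still lie between copies.

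Ftl1, the ferritin light chain, had 12.5, 10.2 and 11.5 CPM in CAST/EiJ and 1440, 1680 and 1820 CPM in PWK/PhJ, a log2 difference of -7.17. With its copies Ftl1-ps1, Ftl2-ps and Gm15590 it had 1920, 1770 and 1670 CPM against 1460, 1690 and 1830 CPM, which overlap (0.11, standard error 0.18, adjusted p 0.688). mt-Co2, the mitochondrially encoded subunit of cytochrome c oxidase, went from 830, 858 and 1150 CPM against 24.6, 14.1 and 22.2 CPM to 4160, 4320 and 6430 CPM against 5760, 3910 and 4180 CPM, and from 5.54 to 0.11. Of the 13 mitochondrially encoded genes 2 were higher in CAST/EiJ and 3 in PWK/PhJ alone (38.5% called), or 5 and 1 with the covariates. mt-Co1 went from -1.32 to -0.34 and mt-Nd4l from 5.11 to 0.45, and neither was called as a sum. mt-Nd3 stayed called as a sum and went from -2.65 to -2.37 (adjusted p 2.07e-08). Of the 75 ribosomal protein genes, 12 were higher in CAST/EiJ and 19 in PWK/PhJ alone (41.3% called, beside 34.1% of all genes), and 24 and 5 with copies added, a median of 0.43. Counted alone, the split was 5 and 23 with the covariates, 6 and 21 without PWK/PhJ replicate 1, 7 and 18 without CAST/EiJ replicate 4 and 22 and 16 without PWK/PhJ replicate 3. Rps2 went from -5.84 to 0.62 (adjusted p 0.0103) and Rpl29 from -6.69 to 0.65 (adjusted p 0.0113), so that their direction turned. Rpl9 went from 5.05 to 0.43. Eno1b, an enolase copy annotated as protein-coding and so not added to another gene, had 298, 298 and 313 CPM against 0.24, 0 and 0.166 CPM (11.13, and 6.96 with its own copy Gm4735 added), while the glycolytic enzyme gene Eno1 had 48.7, 51.7 and 43.9 CPM against 230, 342 and 351 CPM. Eno1b and Eno1 were picked after their values were seen. Whether reads of each strain were placed on the C57BL/6J genome or on a genome of that strain is not given in the sources used here, and its part in these opposed pairs was not tested.

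**Figure D5:**
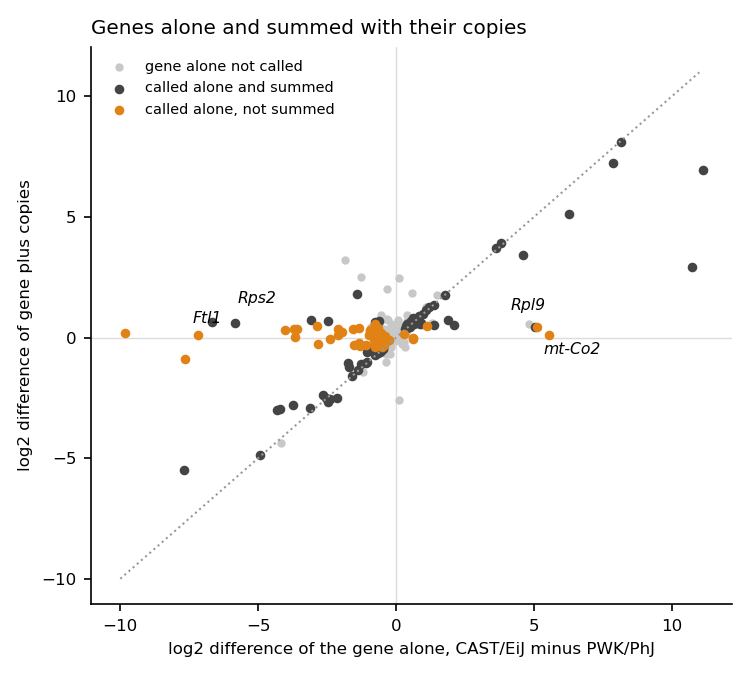
Log2 difference, CAST/EiJ minus PWK/PhJ, of each of 337 genes counted alone (horizontal axis) and summed with its matched copies (vertical axis), the dotted line marking equal values. Genes called alone but not as a sum are orange, and Ftl1 at -7.17 and mt-Co2 at 5.54 fall to 0.11 on the vertical axis.

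In PWK/PhJ 200 called genes had at most 3 counts in every library while CAST/EiJ averaged at least 1 CPM, and 137 of them were pseudogenes and 49 protein-coding. In CAST/EiJ 80 genes were in that state against PWK/PhJ, 59 of them protein-coding and 15 pseudogenes. At a mean of at least 10 CPM in the higher strain the numbers were 48 (41 pseudogenes) and 5. Counts were whole for 23 of the 200 and 49 of the 80, beside 9221 of all 14482 genes tested. They were whole for 0 of the 48 and 1 of the 5, so the levels of most genes near 0 in PWK/PhJ are uncertain.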

How the data were processed

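RNA was selected by its poly(A) tail and made into TruSeq RNA v2 libraries, per the labels' protocols, and strand is not stated, so overlapping and antisense genes are uncertain. The authors deposited a table of estimated counts (expected counts) for 43346 Ensembl genes, not scaled to depth. The submitters' processing notes name FastQC 0.11.5, DESeq2, GRCm38 and mm10. The aligner, the counting program and the annotation are not given in the sources used here. Of the 14482 genes tested, 5261 had counts that were not whole (tolerance 0.01) in at least 1 of the 6 libraries, as happens when a program divides reads between genes or transcripts, and their levels are uncertain.

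Counts were rounded to whole numbers. The filter was filterByExpr by strain and the scaling TMM. Genes were tested in edgeR 4.0.16 (with limma 3.58.1, R 4.3.3) with a quasi-likelihood model (glmQLFit, glmQLFTest) on all 27 libraries with strain as the factor. The contrast was CAST/EiJ minus PWK/PhJ, with p-values adjusted by Benjamini and Hochberg over 14482 genes and called under 0.05. On counts simulated from the fitted model, the test called 8 of 13860 unchanged genes. It called 66 of 100 genes changed by 1 log2 unit and 96 of 100 changed by 2. The simulation drew from the model under test and changed far fewer genes than were called here. It therefore cannot show that the model suits these data. CPM are counts scaled to 1000000 counts of the TMM-scaled library size. Where each library of the lower strain had at most 3 counts, the fold was computed against 3 counts per library and is a lower bound. Such floors cover counting error only, since PCR reads are not independent molecules. Libraries of 1 strain differed beyond sampling noise (chi-square per degree of freedom 26.2 to 124). The labels call them biological replicates and do not say more of their source. The p-values rest on the spread between libraries of the same strain, estimated over all 27 libraries and not over CAST/EiJ and PWK/PhJ alone.

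Symbols, types and positions came from GENCODE M21 (GRCm38), and promoters from RefSeq. Named genes were the 10 largest called fold differences in each direction (protein-coding, named, at least 10 CPM in the higher strain, no overlap, whole counts), the 5 most abundant called protein-coding genes in each direction at 2-fold or more without overlap, and, in each of 46 gene lists, up to 4 called members by size and the most abundant member not called. The comparison, the lists and the rule were chosen with earlier results of these data known. Alternatives were DESeq2 1.42.0, median-of-ratios factors, no filter, a mean of at least 10 counts, the 6 libraries alone, the replicate number as a factor, a GC trend removed, the Kupffer cell and endothelial marker means as covariates, genes with whole counts only, and each library left out. A few genes are not reported here. Adding counts of copies, matched with blastn 2.17.0, was chosen after seeing the data.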

Additional observations from a re-analysis of the deposited data

How the results depend on the processing

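The 4941 calls, 2301 of them higher in CAST/EiJ and 2640 in PWK/PhJ, stayed within 1.5 times their number with DESeq2 (5162), no low-count filter (4752), median-of-ratios factors (4966), a minimum mean of 10 counts (4560), the 6 libraries alone (3820), a GC trend removed (5184) and copies added to their matching gene (4579), and when a library was left out (3715 without PWK/PhJ replicate 1 to 5051 without PWK/PhJ replicate 3). Removing the GC trend turned the split to 2617 higher in CAST/EiJ and 2567 in PWK/PhJ. Leaving out PWK/PhJ replicate 1 also turned it, to 1865 and 1850. CAST/EiJ and PWK/PhJ share replicate number 1 only, so the numbers do not pair these libraries. With the replicate number as a factor (replicate block) over all 27 libraries, 3044 genes were called, 1502 and 1542 in each direction. With the Kupffer cell and endothelial covariates 3135 were called, 1598 and 1537. These included 2470 of the 4941, and the estimate changed sign for 127 of the 4941. Genes with whole counts in all 6 libraries were fewer (9221 tested), and gave 2925 calls, 1152 of them higher in CAST/EiJ and 1602 at least 2-fold. The cause of the change with the block and with the covariates was not tested. Of 217 named results, the block took 23 below the threshold, the covariates 46 and leaving out PWK/PhJ replicate 1 took 18. Under copies added, 4 estimates changed sign. Rpl29 (0.65) and Rps2 (0.62) were called in the other direction. Ftl1 (0.11) and Ndufb4 (-1.96 alone, 0.24 as a sum, adjusted p 0.354) were no longer called. The block left 8 cholesterol genes, 21 interferon-stimulated genes and 3 Kupffer cell markers higher in PWK/PhJ. CAST/EiJ replicate 5 was the shallowest library, with 17015956 counts.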
